A study of Mus musculus with 4 samples.

Results

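Intermediate filaments are the rope-like fibres that give cells and nuclei mechanical strength. The genes described here are 10 that encode their subunits: the keratins Krt8, Krt18, Krt19 and Krt7, vimentin (Vim), nestin (Nes), the neurofilament subunits Nefl and Nefm, and the lamins Lmna and Lmnb1. They were taken by gene symbol from the array's annotation, which gave 20 probe sets, and 9 of the 10 genes were among the 7815 tested, of 12393 genes on the array. The list was chosen by name with the measured differences between knockdown and control already known, so these differences are given as a description with their errors, and no p-value is given for any of the 10. Where a gene of the list is said to have risen, it passed the threshold of the fit across all tested genes (limma, adjusted p under 0.05).

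The cells were R1 mouse embryonic stem (ES) cells, an established line, infected with a lentivirus that expressed a short hairpin RNA (shRNA). In 2 samples the shRNA targeted Brg1, the motor subunit of SWI/SNF chromatin remodellers, encoded by Smarca4 (the knockdown). In the other 2 it was directed against the glucose transporter GLUT4, encoded by Slc2a4 (the control). All 4 samples were lentivirus-infected and harvested 67 h after infection, each was read on 1 Affymetrix array, and the series asks which genes depend on Brg1 and its complex. Both groups derive from 1 cell line, the knockdown was partial, and the labels do not say how many different hairpins were used.

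Keratins form obligate pairs of a type II chain (Krt8, Krt7) and a type I chain (Krt18, Krt19), and Krt8 with Krt18 is the first pair made in the simple epithelium of the early embryo, the trophectoderm. Vimentin is the filament of mesenchymal cells, nestin co-assembles with it in neural progenitors, and the neurofilament chains fill axons. B-type lamins such as Lmnb1 line the nucleus of nearly every cell, whereas the A-type lamins encoded by Lmna are known to be scarce in ES cells and to accumulate with differentiation.

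Krt8 and Krt18 lie side by side on chromosome 15, facing away from each other, with 23.9 kb between their transcription starts. The 250 bases before those starts are shown because the neighbours differed in the size of their change, and those of Vim, another gene that rose, for comparison. Capitals mark matches on either strand to TATAAA (the TATA box), to CCAAT (the CCAAT box), to GGGCGG (the GC box) or to TGANTCA (the AP-1 site). The sequences are from RefSeq, build GRCm38.p6, in the direction of transcription.
Krt8, chr15:102004343-102004592, minus strand: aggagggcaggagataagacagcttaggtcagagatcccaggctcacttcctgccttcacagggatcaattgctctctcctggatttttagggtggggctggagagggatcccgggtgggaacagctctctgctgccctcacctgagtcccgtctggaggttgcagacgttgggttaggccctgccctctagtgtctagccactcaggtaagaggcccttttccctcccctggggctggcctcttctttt
Krt18, chr15:102027966-102028215, plus strand: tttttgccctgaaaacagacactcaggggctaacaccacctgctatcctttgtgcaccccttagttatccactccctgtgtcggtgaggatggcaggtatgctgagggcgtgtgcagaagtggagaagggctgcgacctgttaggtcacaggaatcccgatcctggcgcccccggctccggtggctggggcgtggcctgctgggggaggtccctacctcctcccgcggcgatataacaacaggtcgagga
Vim, chr2:13574061-13574310, plus strand: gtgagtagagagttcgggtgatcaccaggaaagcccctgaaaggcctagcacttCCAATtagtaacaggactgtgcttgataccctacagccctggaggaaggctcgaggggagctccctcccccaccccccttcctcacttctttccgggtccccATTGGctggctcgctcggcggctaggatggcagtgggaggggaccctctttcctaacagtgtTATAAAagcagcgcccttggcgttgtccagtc

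Neither the Krt8 nor the Krt18 window held any of these letters, whereas the Vim window held 1 TATA box and 2 CCAAT boxes. Of all 32851 promoter windows of this length in the table, 12.4% held the TATA box, 33.8% the CCAAT box, 32.7% the GC box and 6.75% the AP-1 site. The G and C content was 58% for Krt8, 60.4% for Krt18 and 58.4% for Vim, against a median of 52.4% over all windows. The dinucleotide CG occurred 3 times before Krt8, 12 times before Krt18 and 8 times before Vim, against a median of 6. Windows were found for 6 of the 10 genes. Among those not shown, Lmna, which also rose, had no TATA box. It had 1 GC box before its first start and 1 CCAAT box before its second. Nes, which did not pass, had 2 GC boxes, and Krt7, which was not tested, had 4. A link between these letters and the size of the change was not tested.

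The arrays had been brought to one level before deposit, with trimmed means of 200.1 signal units on each, and medians between 46.6 and 50. Smarca4, the target, fell: it gave 652.1 and 621.5 in the knockdown and 1187 and 1214 in the control, which is -0.89 ± 0.08 (SE) as a log2 difference (adjusted p by limma = 0.000232). Slc2a4 was dim in both groups (20.9 and 23.9 against 11.7 and 19.2) and was not tested. Of 12 ES cell markers 12 lay above the filter on dim genes, with Pou5f1 at 2487 ± 97.6 against 2473 ± 149.8 (SD, n = 2 each, knockdown first). Their summed signal was 22075 to 22692 in the knockdown and 21910 to 22008 in the control. Of the 12, 3 rose (Nanog, Fgf4, Esrrb) and 1 fell (Lin28a), where 9.33% of all tested genes rose and 5.09% fell. Esrrb no longer passed when knockdown replicate 2 (adjusted p = 0.0564) or control replicate 1 (0.0526) was omitted, nor did Lin28a when the latter was (0.0825). With the mean of all probe sets Fgf4 (0.0712), Esrrb (0.234) and Lin28a (0.128) did not pass, and without the intensity trend Esrrb (0.0580) and Lin28a (0.0764) did not. Lin28a also lost its call without a filter (0.0630) and with the spike-in scaling described next (-0.07, 0.808). Bacterial and phage spike-ins added at hybridisation had a mean log2 signal of 9.37 in knockdown arrays and 9.68 in control arrays. Scaling to them moves the median of all tested genes from 0.04 to 0.31 (log2), so directions are relative to the deposited scale.

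Of the 9 tested genes, 4 rose in the knockdown (Krt8, Vim, Nefl and Lmna) and 0 fell, while 5 did not pass (Krt18, Krt19, Nes, Nefm and Lmnb1). Over all tested genes 14.4% passed, 9.33% upward and 5.09% downward. The knockdown arrays did not overlap the control arrays for 7 of the 9 genes, against 60.2% of all tested genes. The median log2 difference was 0.19 over the 9 genes and 0.04 over all tested genes. All 9 had mean signals above the filter level of 23.9 in both groups. Because the list was made with these differences known, nothing is read from the counts.

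**Figure D1:**
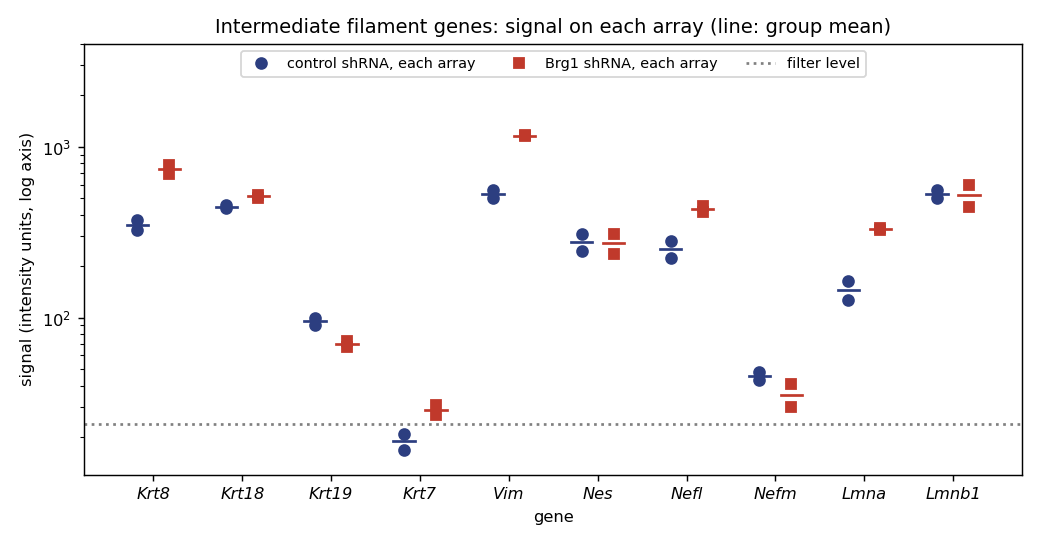
Signal of the 10 genes on each array, by the probe set that represents each gene, on a log axis in intensity units, with circles for the 2 control arrays, squares for the 2 knockdown arrays, short lines for group means and a dotted line for the filter level of 23.9. Krt8, Vim, Nefl and Lmna lie clearly higher on both knockdown arrays, Krt19 and Nefm lie lower, and Nes and Lmnb1 overlap.

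Krt8, the type II keratin of simple epithelia (probe set 1420647_a_at), gave 690.0 and 785.1 signal units in the knockdown and 326.1 and 372.2 in the control. Both knockdown arrays lay far above the higher of the controls. Krt8 rose by 1.04 ± 0.10 (SE, log2), which is 2.05-fold once the pseudocount of 20 signal units is added, while the replicates of each group lay 0.18 apart on the log2 scale. Its other probe sets, both of a kind that may also bind related transcripts, gave log2 differences of 0.78 and 0.95, and neither overlapped between the groups.

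Krt18, the type I partner of Krt8, gave 502.9 and 520.3 in the knockdown and 438.1 and 453.9 in the control. The groups did not overlap, but the log2 difference of 0.19 ± 0.09 (SE) did not pass the test across all genes. The ratio of Krt8 to Krt18 within an array was higher by 0.78 and 0.91 (log2) on the knockdown arrays than the control mean, where the control arrays lay 0.07 to either side of it. The RNAs of this pair differed in their change by 0.85 on the log2 scale. This pair and those below were formed with the results known, so the ratios restate the differences of the single genes.

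Krt19, another type I keratin and the smallest of the keratins, gave 73.3 and 67.2 in the knockdown and 91.0 and 98.8 in the control. Both knockdown arrays lay below both controls, in the opposite direction to Krt8, with a log2 difference of -0.35 ± 0.13 (SE) that did not pass the test. The ratio of Krt8 to Krt19 was higher by 1.39 on the log2 scale in the knockdown. Krt7, a type II keratin of ducts and glands, was dim, with 30.7 and 26.7 in the knockdown and 16.7 and 20.9 in the control. It was the 1 gene of the list below the filter and was not tested. Both of its knockdown arrays were the higher ones, with a log2 difference of 0.33 that moved to 0.50 and 0.19 with pseudocounts of 5 and 50.

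Vim (probe set 1450641_at) gave 1153 and 1165 in the knockdown and 504.5 and 556.9 in the control. It rose by 1.10 ± 0.08 (SE, log2), or 2.14-fold, while the knockdown arrays lay 0.02 and the control arrays 0.14 apart on the log2 scale. The other Vim probe sets gave differences of 0.86 and 1.11, also without overlap. Vimentin is made by fibroblasts, so fibroblast markers were set beside it: 13 of the 16 on the array lay below the filter. Both knockdown arrays were the higher ones for 3 of these 13 (Col3a1, Postn and Fap) and the lower ones for 1 (Prrx1). The other 9 overlapped, among them Col1a1 (5.90 to 16.0 over the 4 arrays) and Dcn (2.10 to 13.9). Over all tested genes the arrays of the groups did not overlap for 60.2%. For all genes below the filter this share was not counted, so nothing is read from the dim markers. The summed signal of the 16 was 324.0 to 349.6 in the knockdown and 287.8 to 301.1 in the control. Of the 3 tested, 0 passed limma, 2 of them with an unadjusted p under 0.05, where 14.4% of all tested genes passed. In such bulk RNA, a change in the share of some cells and a change in RNA per cell cannot be told apart.

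Nes, the partner of vimentin in progenitor cells, was represented by a probe set that gave 236.4 and 310.4 in the knockdown and 306.6 and 246.0 in the control, and the groups overlapped, with a log2 difference of -0.02 ± 0.14 (SE). A dimmer probe set overlapped too (log2 difference 0.01), and the remaining one lay below the filter. The ratio of Vim to Nes was higher by 1.29 and 0.94 on the knockdown arrays than the control mean, where the controls lay 0.22 to either side.

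**Figure D2:**
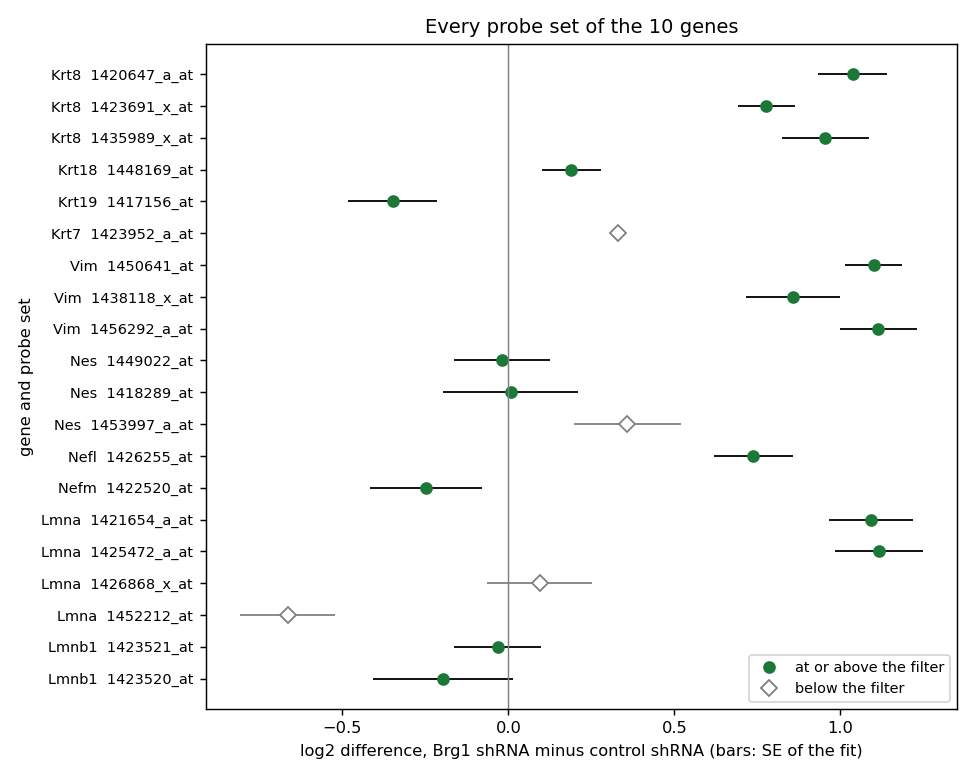
Log2 difference between knockdown and control for each of the 20 probe sets, with SE bars, filled circles at or above the filter and open diamonds below it (Krt7 has no bar because it was not tested). The probe sets above the filter for Krt8, Vim and Lmna lie between 0.78 and 1.12, and the dim Lmna probe set at -0.66 stands on the other side of 0.

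Nefl, the light chain on which neurofilaments assemble, gave 414.3 and 448.4 in the knockdown and 223.1 and 280.9 in the control. It rose by 0.74 ± 0.12 (SE) on the log2 scale, or 1.67-fold, and both knockdown arrays lay well above the higher control. Nefm, the medium chain and direct neighbour of Nefl on the chromosome, was dim, at 40.9 and 29.9 in the knockdown and 42.9 and 48.2 in the control. Its groups did not overlap, in the downward direction, and the log2 difference of -0.25 ± 0.17 (SE) did not pass. The ratio of Nefl to Nefm was higher by 0.99 on the log2 scale in the knockdown. Of 15 neural markers on the array, 5 were tested and 0 passed limma (1 at an unadjusted p under 0.05), where 14.4% of all tested genes passed. Of the 10 below the filter, both knockdown arrays were the higher ones for 4 (Sox1, Map2, Neurog1 and Elavl4). They were the lower ones for 2 (Fabp7 and Snap25), and 4 overlapped. Among all tested genes 60.2% did not overlap. For all genes below the filter this share was not counted, so nothing is read from these dim markers. The summed signal of the 15 was 1791 to 1815 in the knockdown and 1792 to 1852 in the control. Most of this sum was Stmn2 alone (1250 to 1393), so it says little about the other markers.

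Lmna, the gene of lamins A and C (probe set 1421654_a_at), gave 333.8 and 324.5 in the knockdown and 126.2 and 163.3 in the control. It rose by 1.09 ± 0.13 (SE) on the log2 scale, or 2.13-fold, and both knockdown arrays were alike. A second probe set gave 169.4 and 172.9 against 62.0 and 74.7, a log2 difference of 1.12. The other Lmna probe sets were below the filter: one gave 5.50 and 3.60 in the knockdown against 18.2 and 19.6 in the control, a log2 difference of -0.66, and the other overlapped between the groups. With the mean of all 4 probe sets Lmna had a difference of 0.41 and no longer passed the test, so its rise rests on the brighter pair of probe sets.

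Lmnb1, a B-type lamin, did not differ beyond the spread of its arrays. It gave 445.6 and 600.5 in the knockdown and 502.4 and 558.4 in the control, a log2 difference of -0.03 ± 0.13 (SE). The other probe set gave -0.20 ± 0.21 (SE), again with overlap. The ratio of Lmna to Lmnb1 was higher by 1.35 and 0.90 (log2) on the knockdown arrays than the control mean, around which the controls lay at 0.09 to either side. The Lmna and Lmnb1 RNAs differed in their change by 1.12 on the log2 scale, in a pair formed with both results known.

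**Figure D3:**
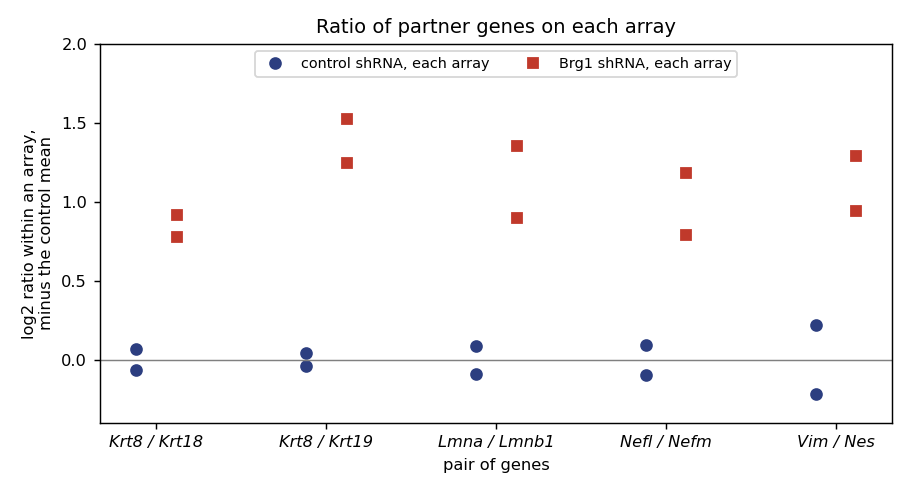
Log2 ratio of 5 pairs of genes within each array, minus the mean of the control arrays, with circles for control and squares for knockdown arrays. The pairs were formed with the results known. In each pair the knockdown arrays lie above the control arrays, by 0.85 for Krt8 over Krt18 and 1.39 for Krt8 over Krt19 on average.

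The patterns over the 4 arrays were compared by the root mean square difference of log2 values after removing each gene's mean, as a description. Of 7814 other tested genes, those most like Krt8 were Scn3b (0.04), Slc27a4 (0.05) and Cd68 (0.05). Among the filament genes Vim ranked 13, Lmna 27 and Nefl 110 in likeness to Krt8, whereas Krt18 ranked 1971. These ranks largely restate the log2 differences given above (1.04 for Krt8, 1.10, 1.09, 0.74 and 0.19 for the others in turn), which were known beforehand. Whether the genes are regulated together was not tested. The genes most like Krt18 were Pagr1a (0.007), Snapin (0.007) and Cand1 (0.012), each with a log2 difference between 0.18 and 0.20.

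Krt8 is also a marker of trophectoderm, so the other markers of that lineage were set beside it. Of 13 on the array 8 lay below the filter. Both knockdown arrays were the higher ones for 3 of these (Cdx2, Elf5 and Tfap2a) and the lower ones for 3 others (Tead4, Ascl2 and Dlx3), while Gata3 and Plac1 overlapped. Over all tested genes the arrays of the groups did not overlap for 60.2%. The share among all genes below the filter was not counted, so nothing is read from these counts. Cdx2, for example, gave 21.6 and 29.0 in the knockdown against 8.70 and 12.1, and Tead4 gave 4.10 and 3.90 against 14.0 and 15.9. Of the 4 with mean signals above the filter level in both groups, 2 rose and 2 (Eomes and Gata2) did not pass, where 9.01% of all such genes rose. Tfap2c rose by 0.93 ± 0.17 and Bmp4 by 0.66 ± 0.16 (log2, SE; limma, adjusted p = 0.00776 and 0.0240). Neither passed without a filter (0.0565 and 0.0929), nor did Bmp4 when control replicate 1 was left out (0.123). Hand1 gave 43.8 and 57.0 in the knockdown against 18.9 and 21.6, below the filter level. Hand1 thus reached the filter only through the knockdown arrays and is not counted, although it passed the fit as a rise. The summed signal of the list was 414.7 to 425.4 in the knockdown and 248.7 to 263.6 in the control. Most of this gap came from the 3 genes that passed the fit. Their mean signals, knockdown first, were 118.55 against 53.0 for Tfap2c, 66.3 against 34.6 for Bmp4 and 50.4 against 20.25 for Hand1. The sum thus restates these genes and says little about the others. Primitive endoderm also makes simple epithelial keratins. Of its 5 markers with mean signals above the filter level in both groups, 0 rose and 1, Lama1, fell by 0.55 (limma, adjusted p = 0.0236). Of all such genes 9.01% rose and 14.2% passed in either direction, so 0 rises among 5 genes sets the lineages apart in no way. Lama1 lost this call without knockdown replicate 1 (0.0570) or control replicate 2 (0.10), without a filter (0.0831), and with the spike-in scaling (-0.29, 0.303). Foxa2 reached the filter only through the knockdown arrays and is not counted, although it passed the fit as a rise. Another 10 endoderm markers lay below the filter. Both knockdown arrays were the higher ones for 4 of these (Gata4, Sox17, Sox7 and Afp) and the lower ones for 1 (Gata6), while 5 overlapped. Afp was very dim, at 7.60 and 2.30 in the knockdown against 2.20 and 0.40. Nothing is read from these counts either, for lack of the share among all genes below the filter. The summed signal of the endoderm list was 937.7 to 950.0 in the knockdown and 924.8 to 989.4 in the control. Col4a1 alone gave 248.1 to 278.7 over the 4 arrays, so the sum says little about the dim markers. The part of these cell types in the keratin values was not tested.

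Among the other genes of the intermediate filament family, which were listed by family membership, 44 of 61 were on the array and 36 of those lay below the filter, most of them keratins of skin and hair. Of the 8 tested, 6 had mean signals above the filter level in both groups, and of these 1 rose and 0 fell. Over all such genes 14.2% passed. Ina, which encodes the neuronal filament protein alpha-internexin, gave 1113 and 1101 in the knockdown and 520.3 and 609.8 in the control. It rose by 0.95 ± 0.09 (SE; limma, adjusted p = 0.000352), with both knockdown arrays close together and far above the controls. Krt17, a keratin of stressed and basal epithelia, gave 40.4 and 47.1 against 17.2 and 21.7, below the filter level. It reached the filter only through the knockdown arrays and is not counted, although it passed the fit. Lmnb2, the second B-type lamin gene, gave 254.4 and 262.0 against 219.6 and 221.5, with a difference of 0.21 that did not pass (adjusted p = 0.189), and peripherin (Prph) gave 0.23 (adjusted p = 0.398).

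Filaments are tied to junctions and to other cytoskeletal fibres by plakins and by desmosomes. Of 12 tested linker and desmosome genes, 3 rose, 2 fell and 7 did not pass, with a median of 0.27. Over all tested genes 9.33% rose and 5.09% fell, with a median of 0.04. The risers were plakins, although other tested plakins did not pass. Plec (plectin), which crosslinks filaments including vimentin and keratin, rose from 267.5 and 305.7 to 427.6 and 487.8. Its log2 difference was 0.64 ± 0.11 (SE, limma, adjusted p = 0.00544). Dst (dystonin) rose by 0.47 ± 0.09 and Macf1 by 0.46 ± 0.09 (adjusted p = 0.0111 and 0.00979). The falls were of Dsg2, a desmosomal cadherin, at 110.9 and 112.1 against 179.4 and 187.8 (-0.63 ± 0.11, adjusted p = 0.00732), and Pkp4, a plakophilin, by 0.40 ± 0.09 (adjusted p = 0.0222). With the mean of all probe sets neither fall passed (-0.36 and -0.27, adjusted p = 0.0830 and 0.0974), and with the spike-in scaling the list had 6 rises and 0 falls. Desmoplakin (Dsp), a plakin that anchors keratins at desmosomes, had a difference of 0.23 ± 0.13 and did not pass (adjusted p = 0.242). Nor did the plakins Evpl, Ppl and Eppk1, at 0.42, 0.17 and 0.08 (limma, adjusted p = 0.0822, 0.523 and 0.820).

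Of 15 tested partners and processing enzymes of lamins, 14 had mean signals above the filter level in both groups. Of these 0 rose and 1 fell, where 14.2% of all such genes passed. With the spike-in scaling 3 rose and 0 fell. Lbr, the lamin B receptor, gave 1243 and 1132 against 1435 and 1444, a fall of 0.28 ± 0.08 (SE; limma, adjusted p = 0.0444). Syne2, a nesprin of the nuclear envelope, gave 20.2 and 16.9, below the filter level, against 47.3 and 33.2. It reached the filter only through the control arrays and is not counted, although it passed the fit. Zmpste24, the protease that matures lamin A, had a difference of 0.36 ± 0.11 that narrowly missed the threshold (adjusted p = 0.0509). Fntb, a subunit of the enzyme that attaches the farnesyl group to lamins, had 0.70 ± 0.22 and did not pass (adjusted p = 0.0628). Its control arrays lay far apart, at 151.5 and 294.7, against 372.9 and 344.6 in the knockdown.

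Over these 3 lists 7 of 32 genes with mean signals above the filter level in both groups passed, where 14.2% of all such genes did. With Krt17 and Syne2, 9 of all 35 tested genes passed, 5 upward and 4 downward, whereas with the spike-in scaling 11 rose and 0 fell, of which 5 were among the 9. Without knockdown replicate 2 only 4 passed, and 649 rather than 1127 of all genes. Without that array Krt17 (adjusted p = 0.0816), Pkp4 (0.0980), Dst (0.0540), Lbr (0.236) and Syne2 (0.112) lost their calls. Krt17 and Lbr also lost theirs without control replicate 1 (0.132 and 0.0953), and Krt17, Pkp4, Lbr and Syne2 without control replicate 2 (0.0617, 0.0753, 0.104 and 0.0670). Ina, Plec and Macf1 passed under all 16 alternatives tried, with a highest adjusted p of 0.00829, 0.0320 and 0.0430. With the spike-in scaling Lbr changed sign, to 0.03, and Pkp4, Dsg2 and Syne2 lost their calls. Without a filter Krt17 (0.0864), Pkp4 (0.0562), Lbr (0.102) and Syne2 (0.125) did not pass. Lbr also failed with quantile normalization (0.0830), without the intensity trend (0.134) and in a fit of single probe sets (0.0679), Pkp4 without the trend (0.0614), and Syne2 in the fit of single probe sets (0.0643).

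**Figure D4:**
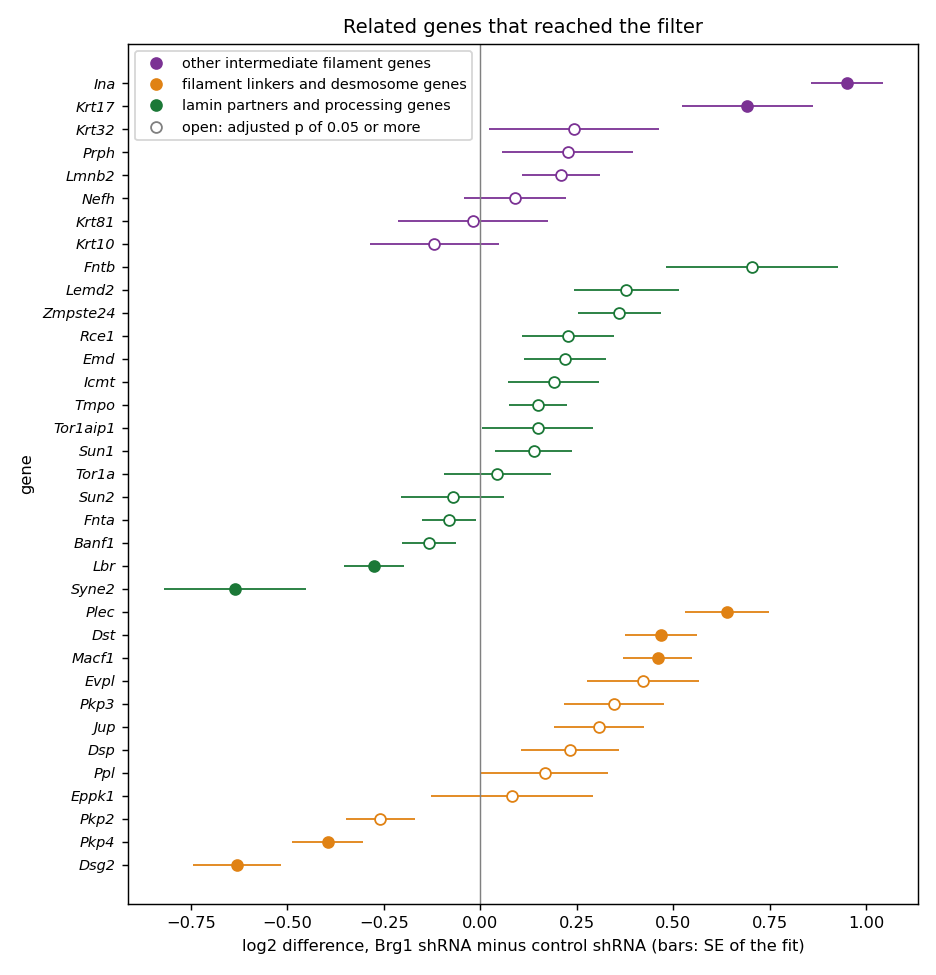
Log2 difference between knockdown and control with SE bars for the 35 tested genes of the 3 lists, by list, with filled circles for genes that passed the test and open circles for those that did not. Ina (0.95), Krt17 (0.69) and Plec (0.64) are the highest that passed, and Syne2 (-0.64) and Dsg2 (-0.63) the lowest.

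The genes beside the 10 on their chromosomes were examined in the order of the RefSeq gene table, 2 on each side. Of 32 such neighbours 22 were on the array and 10 were tested, and 0 passed limma (1 had an unadjusted p under 0.05), where 14.4% of all tested genes passed. Eif4b, which encodes a translation initiation factor and is the next gene after Krt18, gave 2065 and 2025 in the knockdown and 2014 and 1810 in the control, a difference of 0.10 ± 0.08 (SE; adjusted p = 0.414). Dock5, next to Nefl, gave 49.2 and 55.9 against 56.1 and 47.2 and overlapped (0.02 ± 0.15, adjusted p = 0.946). The nearest genes beside Krt8 and Nefm on their other sides were not tested. Rab25, a small GTPase of epithelial cells near Lmna, gave 183.0 and 229.0 against 194.6 and 109.1, and the groups overlapped. Its difference was 0.43 ± 0.21 (SE, limma, adjusted p = 0.191). It passed with the spike-in scaling (adjusted p = 0.00930) and with the crossed replicate block (0.0417). It also passed without control replicate 1, with a difference of 0.80 that rests on control replicate 2 alone.

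**Figure D5:**
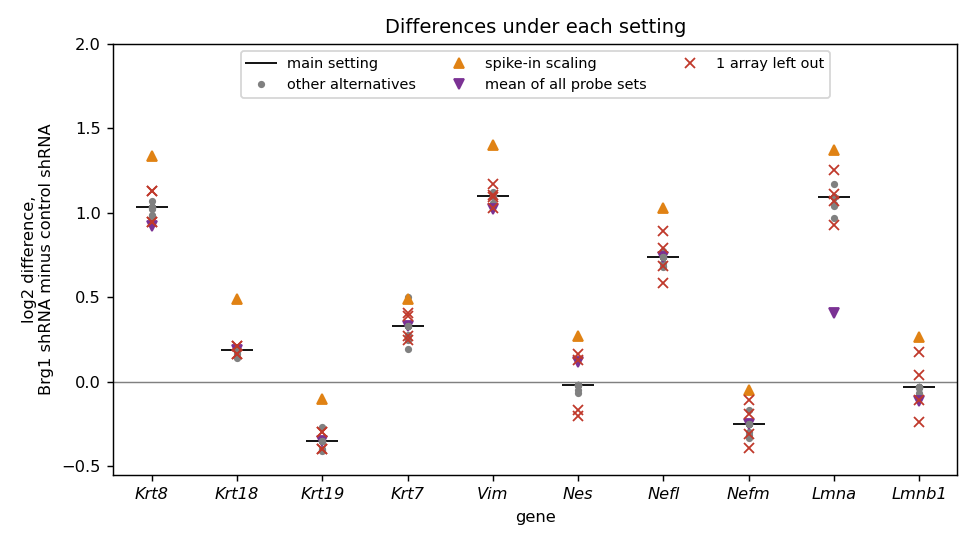
Log2 difference of each of the 10 genes under the main setting (line) and 16 alternatives, with crosses for 1 array left out, upward triangles for the spike-in scaling, downward triangles for the mean of all probe sets and dots for the rest. Krt8, Vim, Nefl and Lmna stay above 0 throughout, with Lmna at 0.41 in the mean of all probe sets, and Nes and Lmnb1 lie on both sides of 0.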

How the data were processed

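The authors deposited linear intensity values, 1 for each probe set on each array, made with the Affymetrix software GCOS per the submitters' processing notes. The version and algorithm of GCOS were not given in the sources used here. Detection calls were not used. Of 22690 probe sets, 64 were controls, and of the rest 20380 had 1 gene, 691 several and 1555 none. Symbols were updated by Entrez ID through RefSeq (GRCm38.p6), where 20351 were found.

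Signals were analysed as log2(signal + 20). A gene was represented by its brightest probe set, those ending in _x_at only where there was no other. Genes below the 40th percentile of probe sets (23.9 units) were left out. Groups were compared with limma 3.58.1 (R 4.3.3; lmFit, eBayes with intensity trend, two-sided, Benjamini-Hochberg adjustment over 7815 genes). Differences understate the change of dim genes. With 2 arrays per group, from separate infections, precision is limited.

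The genes, lists and tests were chosen with earlier results of these data known. Genes named are the 10, the shRNA targets, up to 4 of each related list by smallest p, other family genes and markers that passed, the nearest tested neighbours of the keratin and neurofilament pairs, and the closest patterns. Pkp4, Dsp, Evpl, Ppl, Eppk1, Rab25, Pou5f1 and the markers that did not pass were named after their values were seen. Counts over genes above the filter level in both groups were added after seeing the data.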

Additional observations from a re-analysis of the deposited data

How the results depend on the processing

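The alternatives changed the pseudocount (5 and 50), the filter, the scaling, the variance model, the probe set and the replicate number, and omitted single arrays, where the lone array left is assumed to vary like the other group. Krt8, Vim and Nefl passed under all 16, and Lmna under 15, the exception being the mean of all probe sets. With 1 array left out, the differences ran from 0.95 to 1.13 for Krt8, 1.03 to 1.17 for Vim, 0.58 to 0.89 for Nefl and 0.93 to 1.26 for Lmna. Krt18 did not pass under any of the 16. Nes kept its sign under 12 and Lmnb1 under 13, and with the spike-in scaling both stood at 0.27. The 1127 calls (729 higher, 398 lower) became 622 higher and 598 lower with median centring and 1478 and 37 with the spike-in scaling. The count was 433 without a filter and 649 to 1265 with 1 array left out. In the 3 related lists, the 9 calls (5 higher, 4 lower) became 11 higher and 0 lower with the spike-in scaling, 5 in all without a filter and 4 to 10 with 1 array left out. Among neighbours 1 gene passed with the spike-in scaling, 1 with the crossed block and 0 to 1 with 1 array left out. Replicate numbers are shared by label only: deviations of same-numbered arrays correlated at -0.14 across genes. With the replicate block 1187 genes and 4 of the 10 passed. A crossed replicate block, added after seeing the data, gave 1478 genes and the same 4 of the 10. Signal near the filter level limits Krt7, Krt17, Hand1, Syne2 and Nefm.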
